A study of Mus musculus with 7 samples.

Results

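The 10 genes described here encode ligands that are displayed by tumor or antigen-presenting cells and bind inhibitory or costimulatory receptors of lymphocytes, usually grouped as immune checkpoint ligands. They were *Cd274*, *Pdcd1lg2*, *Cd80*, *Cd86*, *Cd276*, *Vsir*, *Lgals9*, *Lgals3*, *Pvr* and *Nectin2*, and were found by symbol among the 38026 genes of the expression table, with 1 row each. Bulk RNA was sequenced from 7 mouse pancreatic ductal adenocarcinoma (PDA) tumors, of which 4 (sgScramble, replicates 1 to 4) grew from cells that received a scrambled, non-targeting guide RNA and 3 (sgKrt19, replicates 5, 6 and 8) from cells whose guide RNA targeted *Krt19*. *Krt19* encodes an epithelial keratin that the study examined together with the chemokine CXCL12 on the cancer cell surface, and the comparison asks here how the checkpoint ligands differed between tumors with intact and with edited *Krt19*. Both groups used the KPC line 1242, from a tumor of a mouse with an LSL-Trp53 R172H/+ allele and Pdx1-Cre, in which Cre acts in the pancreatic lineage. Both also carried a lentivirus for SpCas9 with the guide and had been selected in puromycin, so that Cas9 and puromycin resistance were shared by the controls. The cells grew under the skin of C57BL/6 mice with an intact immune system, and the tumors were taken 2 weeks after inoculation. The RNA sequencing methods name no treatment of these mice. The study's mice were bought at 6 weeks of age and kept for 2 weeks before an experiment. Polyclonal lines and single-cell clones were both made in the study, and the sources used here do not say which of them, or which *Krt19* guide, gave the sequenced tumors. The methods describe injection into the right flank of mice, without saying for these 7 tumors that each came from its own mouse, so that the p-values measure only the spread between these samples.

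PD-L1 and PD-L2, encoded by *Cd274* and *Pdcd1lg2*, bind the receptor PD-1 on activated T cells and dampen signaling through the T cell receptor, whereas CD80 and CD86 bind both the costimulatory receptor CD28 and the inhibitory receptor CTLA-4. PVR and Nectin-2 are engaged by TIGIT and by the activating receptor CD226, galectin-9 is known as a ligand of TIM-3 (*Havcr2*) and galectin-3 as a ligand of LAG-3 (*Lag3*), and B7-H3 (*Cd276*) and VISTA (*Vsir*) are further inhibitory members of the B7 family. Interferon gamma, made by T cells and natural killer cells, is a classical inducer of PD-L1 through JAK kinases and IRF1, and in tumors these ligands are made by cancer cells as well as by myeloid, stromal and endothelial cells.

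All values are normalized read counts, that is, the reads of a gene scaled by a size factor, and each ± gives the SD among the libraries of 1 group. The 7 libraries held 40781199 to 44972100 reads, and 3 reads, taken as the floor of detection for counting error only, corresponded to a value of 2.74 to 3.47. *Krt19* was 25574, 21179, 27618 and 17841 in the sgScramble libraries and 1606, 1960 and 2470 in the sgKrt19 libraries, a fall of log2 fold change −3.52 (SE 0.183, adjusted p = 1.74e-05, limma). The sum of 7 skeletal muscle markers was 2078 in sgScramble library 3, which stood apart from the other sgScramble libraries at 54.3 to 81.6, and 17293 to 24632 in the sgKrt19 libraries, and its part in the results below was not tested. In bulk tumor RNA, fewer cells of a type and less RNA per cell cannot be told apart.

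RefSeq promoter windows, which run from 250 bases before to 50 bases after a start site in GRCm38.p6, were at hand for 8 of the 10 genes, and *Cd86* and *Pvr* were not among them. They were searched on both strands for GAS, TTCNNNGAA, the gamma interferon activated site, and for the core of the interferon-stimulated response element (ISRE), GAAANNGAA, bound by interferon regulatory factors. The motifs can overlap, but no such overlap arose, since GAS was in 0 of the 8 windows, against 8.30% of all 32851 windows. The ISRE core was in 2 of the 8, those of *Cd274* and *Lgals9*, against 8.56% of all windows. The stretches that hold these matches before the start site are shown because both genes rose in the sgKrt19 tumors, and capitals mark the ISRE core, which in both reads on the opposite strand. The *Cd274* stretch is chr19:29367309-29367437 on the plus strand, and its match begins 76 bases upstream of the RefSeq start, within a noncoding transcript of the neighboring gene *Plgrkt*. The *Lgals9* stretch is chr11:78984947-78985174 on the minus strand, with a match 54 bases upstream, and a second match, TTCTGTTTC, begins at base 17 after the start. A match is a description of these letters and not a shown binding site.
Cd274: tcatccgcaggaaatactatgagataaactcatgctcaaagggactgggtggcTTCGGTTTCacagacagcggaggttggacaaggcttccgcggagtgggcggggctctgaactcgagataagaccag
Lgals9: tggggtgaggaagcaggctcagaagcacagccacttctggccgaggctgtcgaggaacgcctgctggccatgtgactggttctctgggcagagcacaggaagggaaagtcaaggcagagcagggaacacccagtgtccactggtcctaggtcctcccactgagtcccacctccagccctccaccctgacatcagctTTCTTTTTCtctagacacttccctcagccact

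All 10 ligands passed the filter on low values. In the sgKrt19 tumors 4 of the 10 were called higher, with adjusted p under 0.05 over all 21322 genes tested, and these were *Cd274*, *Cd86*, *Lgals9* and *Lgals3*, whereas 0 were called lower by limma. Of all genes tested, limma called 17.9% higher and 16.0% lower at this adjusted threshold. At an unadjusted p under 0.05, 7 ligands were higher and 0 lower, a cut for which the share of all genes was not computed. Among the ligands, edgeR and DESeq2 called 3 and 5 higher and 0 lower. Of all 21322 genes, they called 3689 and 4109 higher and 3499 and 3862 lower. The groups did not overlap for 6 of the 10, the 4 called genes with *Cd80* and *Vsir*, in each case with the sgKrt19 values above, against 21.7% of all genes tested. The median log2 fold change of the 10 was 0.48, and over all genes tested it was 0.0072. The log2 fold change was positive for 9 and negative for 1, *Cd276*. The plot of each ligand by library shows these values, and the plot of fold changes shows their intervals. When the libraries were scaled by their total reads alone, the median of all genes moved to −0.21 and 27.7% instead of 52.8% of all calls were higher, and 3 of the 10 ligands were still called higher, with *Lgals3* lost and *Pvr* at −0.0080.

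**Figure D1:**
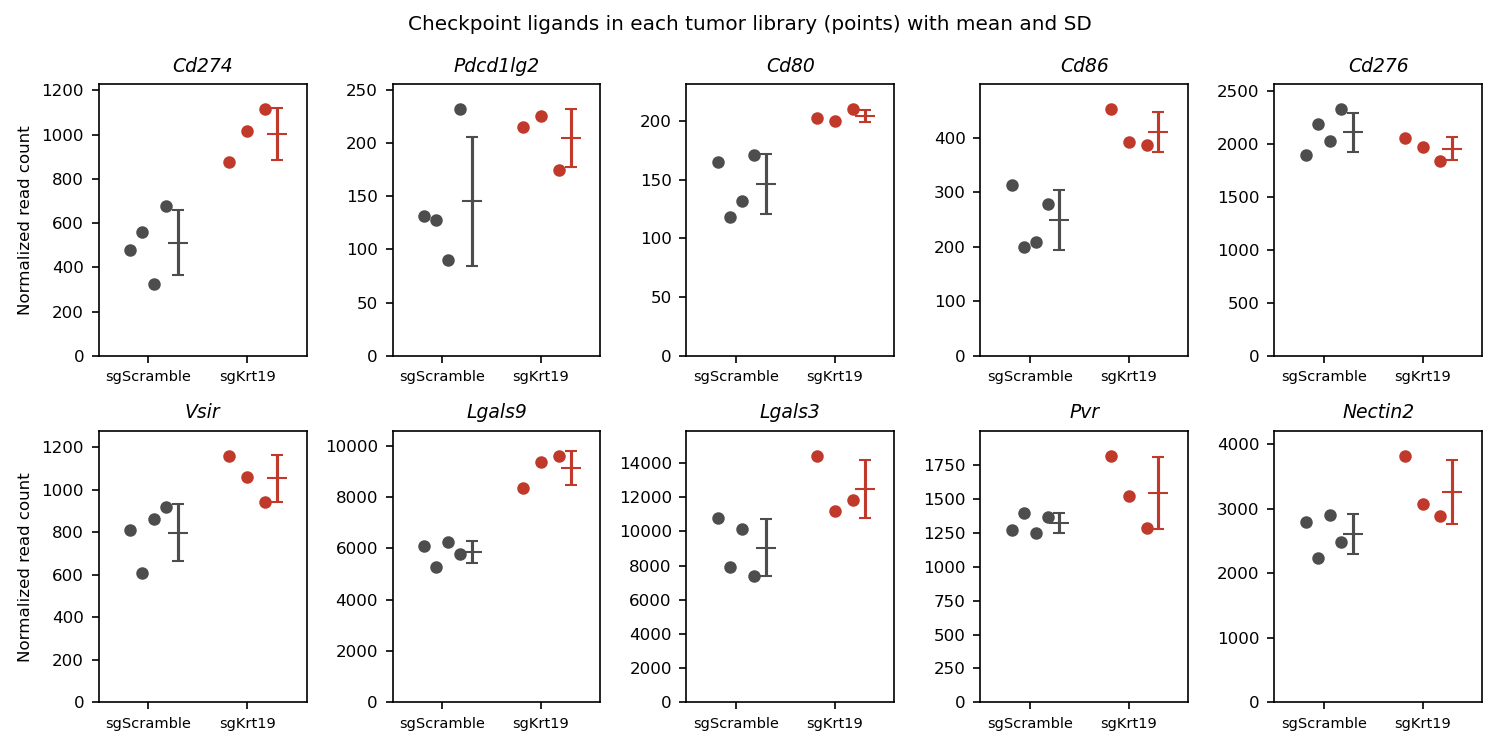
Normalized read count (y axes, from 0) of each checkpoint ligand in the 4 sgScramble and 3 sgKrt19 tumor libraries, with points for libraries in replicate order and bars for mean and SD. *Cd274* lay at 327 to 677 in the sgScramble libraries and at 879 to 1115 in the sgKrt19 libraries, whereas *Pdcd1lg2*, *Cd276*, *Pvr* and *Nectin2* overlapped between the groups.

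**Figure D2:**
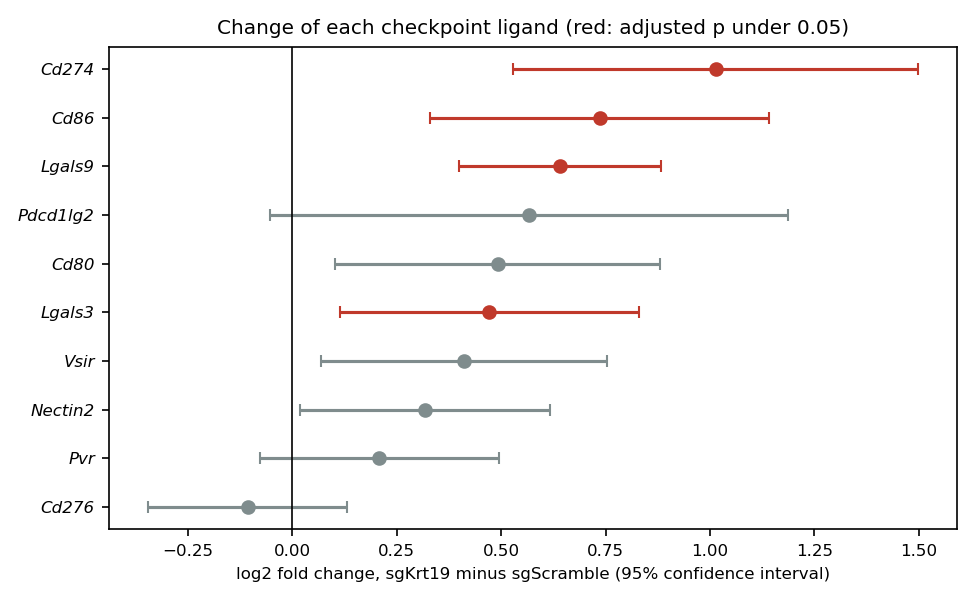
Log2 fold change, sgKrt19 minus sgScramble, of each checkpoint ligand (x axis, with 95% confidence interval), ordered by size, with red for adjusted p under 0.05. The values run from −0.11 for *Cd276* to 1.01 for *Cd274*, and the intervals of *Pdcd1lg2*, *Pvr* and *Cd276* include 0.

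Of the PD-1 ligands, *Cd274* (ENSMUSG00000016496.7, chr19:29367455-29388095, plus strand) was 479, 560, 327 and 677 in sgScramble libraries 1 to 4 and 879, 1015 and 1115 in sgKrt19 libraries 5, 6 and 8. All 3 sgKrt19 values were above the highest sgScramble value, that of library 4. The means were 511 ± 147 (SD, n = 4) and 1003 ± 119 (SD, n = 3), a ratio of 1.96. The log2 fold change was 1.01 (SE 0.218, 95% confidence interval 0.53 to 1.5, adjusted p = 0.00653, limma), the largest of the 10 ligands, and it lay between 0.82 and 1.17, and stayed called, when each library was left out in turn. Of its exon bases, 14.1% are shared with a gene model on the opposite strand, *AC119228.1*, and whether the counting used strand is not stated. Tested against a 1.5-fold change instead of no change, *Cd274* was not called (adjusted p = 0.323, limma).

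*Pdcd1lg2* (ENSMUSG00000016498.10, chr19:29410919-29471161, plus strand), which lies 22.8 kb downstream of *Cd274*, was 132, 127, 90.4 and 232 in the sgScramble libraries and 215, 225 and 174 in the sgKrt19 libraries. The groups overlapped, since sgScramble library 4 held the highest value of all 7 and the other sgScramble libraries were below every sgKrt19 library. For both PD-1 ligands, library 4 was the highest and library 3 the lowest of the sgScramble group. *Pdcd1lg2* had few reads, 99 to 250 per library, as did *Cd80* with 120 to 200, and it had the widest spread within sgScramble, a coefficient of variation of 41.6%. Its log2 fold change of 0.57 (SE 0.279, 95% confidence interval −0.053 to 1.19) was not called (adjusted p = 0.138, limma). Without sgScramble library 4 it was 0.82 and called (adjusted p = 0.0213, limma), and without sgScramble library 3 it was 0.37 and not called.

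The protein-coding genes within 150 kb of the PD-1 ligand pair did not share a direction. This window was chosen after values were seen. *Insl6*, an insulin-like peptide gene, rose from 87.3 to 191.7 (log2 fold change 1.12, adjusted p = 0.00526, limma), and *Ric1*, which encodes a subunit of the exchange factor for RAB6A, fell from 1180.2 to 751 (log2 fold change −0.64, adjusted p = 0.00517, limma). *Jak2*, the kinase of the interferon gamma receptor, had a log2 fold change of −0.02 (adjusted p = 0.876, limma), and *Plgrkt* and *Ermp1*, with −0.10 and −0.06, were not called.

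The CD28 and CTLA-4 ligands are products of antigen-presenting cells above all. *Cd86* (ENSMUSG00000022901.13, chr16:36603869-36666081, minus strand) was 313, 199.6, 208 and 278 in the sgScramble libraries and 452, 392.1 and 386 in the sgKrt19 libraries. The groups were apart, with sgScramble library 1 closest to the sgKrt19 values. *Cd86* rose from 249.8 ± 54.9 to 410.2 ± 36.3, a ratio of 1.64 and a log2 fold change of 0.74 (SE 0.182, 95% confidence interval 0.33 to 1.14, adjusted p = 0.0126, limma), and stayed called without any single library, at 0.64 to 0.85.

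*Cd80* (ENSMUSG00000075122.5, chr16:38455561-38496335, plus strand), 1789 kb from *Cd86* on the same chromosome, was 165, 119, 132 and 171 in the sgScramble libraries and 202, 200.03 and 210.03 in the sgKrt19 libraries. These groups did not overlap either, and the sgKrt19 values were the closest to each other of any ligand (coefficient of variation 2.57%). The means were 147 ± 25.4 and 204 ± 5.24, and the log2 fold change of 0.49 (SE 0.175, 95% confidence interval 0.10 to 0.88) missed the threshold (adjusted p = 0.0526, limma). It was called without sgScramble library 1 (adjusted p = 0.0459, limma), with a filter at a value of 50 (adjusted p = 0.0491, limma), without a trend (adjusted p = 0.0492, limma) and by DESeq2 (adjusted p = 0.038).

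Of the other B7 relatives, *Vsir* (ENSMUSG00000020101.14, chr10:60346851-60372684, plus strand), known for its expression on myeloid cells and T cells, was 809, 607, 861 and 916 in the sgScramble libraries and 1159.5, 1060.2 and 941 in the sgKrt19 libraries. The groups did not overlap, but sgKrt19 library 8 and sgScramble library 4 were close neighbors. The means were 798 ± 135 and 1054 ± 109, and the log2 fold change of 0.41 (SE 0.154, 95% confidence interval 0.069 to 0.75) was not called (adjusted p = 0.0624, limma). *Cd276* (ENSMUSG00000035914.11, chr9:58524298-58555437, minus strand), which is made widely by tumor and stromal cells, was 1899, 2185, 2031 and 2329 in the sgScramble libraries and 2055, 1972 and 1841 in the sgKrt19 libraries. The groups overlapped and the mean was lower in sgKrt19, 1956 ± 108 against 2111 ± 186. Its log2 fold change was −0.11 (SE 0.107, 95% confidence interval −0.35 to 0.13, adjusted p = 0.458, limma), and it was negative in all 16 alternatives, from −0.32 to −0.058, and called in 0 of them. A gene model on the opposite strand, *Gm10657*, shares 11.4% of its exon bases.

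The galectins were the most abundant of the 10 ligands and both were called higher. *Lgals9* (ENSMUSG00000001123.15, chr11:78962974-78984946, minus strand) was 6089, 5269, 6235 and 5786 in the sgScramble libraries and 8362, 9366 and 9612 in the sgKrt19 libraries. The lowest sgKrt19 value, that of library 5, was well above the highest sgScramble value, that of library 3. *Lgals9* rose from 5845 ± 427 to 9113 ± 662, a ratio of 1.56 and a log2 fold change of 0.64 (SE 0.109, 95% confidence interval 0.40 to 0.88, adjusted p = 0.0019, limma), the smallest adjusted p of the 10, and was called in 15 of the 16 alternatives.

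*Lgals3* (ENSMUSG00000050335.17, chr14:47367751-47386160, plus strand), a galectin abundant in macrophages and in epithelial tumor cells, was 10792, 7920.4, 10132 and 7384 in the sgScramble libraries and 14431, 11193 and 11820 in the sgKrt19 libraries. The groups did not overlap, with sgKrt19 library 6 just above sgScramble library 1. *Lgals3* rose from 9057 ± 1659 to 12481 ± 1717, a ratio of 1.38 and a log2 fold change of 0.47 (SE 0.161, 95% confidence interval 0.12 to 0.83, adjusted p = 0.0447, limma). This call was lost without sgScramble library 2 (adjusted p = 0.122, limma) or 4 (0.109), without sgKrt19 library 5 (0.152), 6 (0.0541) or 8 (0.0789), and also by edgeR (0.058) and with library size scaling (0.155), with the log2 fold change between 0.26 and 0.56 over all 16 alternatives.

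The ligands of TIGIT and CD226 were not called by limma, edgeR or DESeq2, although *Nectin2* had an unadjusted p under 0.05. *Pvr* (ENSMUSG00000040511.14, chr7:19903578-19921160, minus strand) was 1269.7, 1397, 1250.3 and 1369 in the sgScramble libraries and 1817, 1518 and 1285 in the sgKrt19 libraries. The sgScramble values were the tightest of any ligand (coefficient of variation 5.48%) and the sgKrt19 values the widest (17.3%), with library 8 inside the sgScramble range and libraries 5 and 6 above it. The means were 1322 ± 72.4 and 1540.3 ± 267 and the log2 fold change was 0.21 (SE 0.129, 95% confidence interval −0.078 to 0.49, adjusted p = 0.229, limma). *Nectin2* (ENSMUSG00000062300.14, chr7:19716644-19750483, minus strand), 153 kb from *Pvr*, was 2798, 2236, 2906 and 2483 in the sgScramble libraries and 3821, 3068 and 2882 in the sgKrt19 libraries. Again sgKrt19 library 8 lay within the sgScramble range and libraries 5 and 6 above it. The means were 2606 ± 305 and 3257 ± 497 and the log2 fold change was 0.32 (SE 0.135, 95% confidence interval 0.019 to 0.62, adjusted p = 0.0912, limma). A gene model on the opposite strand, *Gm20512*, shares 3.86% of the *Nectin2* exon bases.

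The 3 pairs of ligands with shared receptors and the pair of galectins were compared within each library, as the difference of their log2(value + 1), with p-values adjusted over these 4 pairs. The smallest p that an exact permutation test of 4 against 3 libraries allows is 0.0571, so that none could pass 0.05. The *Cd274* minus *Pdcd1lg2* difference was 1.84 ± 0.239 in sgScramble and 2.29 ± 0.339 in sgKrt19, 0.45 higher (exact two-sided p = 0.114, adjusted p = 0.229). The *Cd80* minus *Cd86* difference was −0.76 ± 0.113 and −1.0 ± 0.142, a shift of −0.24 (exact two-sided p = 0.114, adjusted p = 0.229). The values overlapped between the groups in both of these pairs. For *Pvr* minus *Nectin2* the shift was −0.11 (exact two-sided p = 0.514, adjusted p = 0.514), and for *Lgals9* minus *Lgals3* it was 0.17 (exact two-sided p = 0.4, adjusted p = 0.514), and these groups overlapped too.

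Levels of different genes were compared per kb of exon. In every library the order began with *Lgals3*, *Lgals9*, *Nectin2* and *Cd276*, and ended with *Cd80*. The galectins held 75.4% to 82.6% of the summed level of the 10 ligands per kb. In sgScramble the mean level per kb was 4875 for *Lgals3*, 2735 for *Lgals9*, 746 for *Nectin2*, 577 for *Cd276*, 216 for *Pvr*, 159 for *Vsir*, 141 for *Cd274*, 74.1 for *Pdcd1lg2*, 68.2 for *Cd86* and 39.6 for *Cd80*. In this order the ranges of *Vsir* and *Cd274*, of *Cd274* and *Pdcd1lg2*, and of *Pdcd1lg2* and *Cd86* overlapped between neighbors. In sgKrt19 the mean level of *Cd274* per kb was 277, next to 252 for *Pvr* and 210.1 for *Vsir*, and it stood at rank 5 instead of 7, with its range overlapping that of *Pvr*. *Cd86*, at 112, passed *Pdcd1lg2*, at 104, with overlapping ranges. Of the summed PD-1 ligand level per kb, *Cd274* held 61.3% to 70.4% in the sgScramble libraries and 68.9% to 77.6% in the sgKrt19 libraries.

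**Figure D3:**
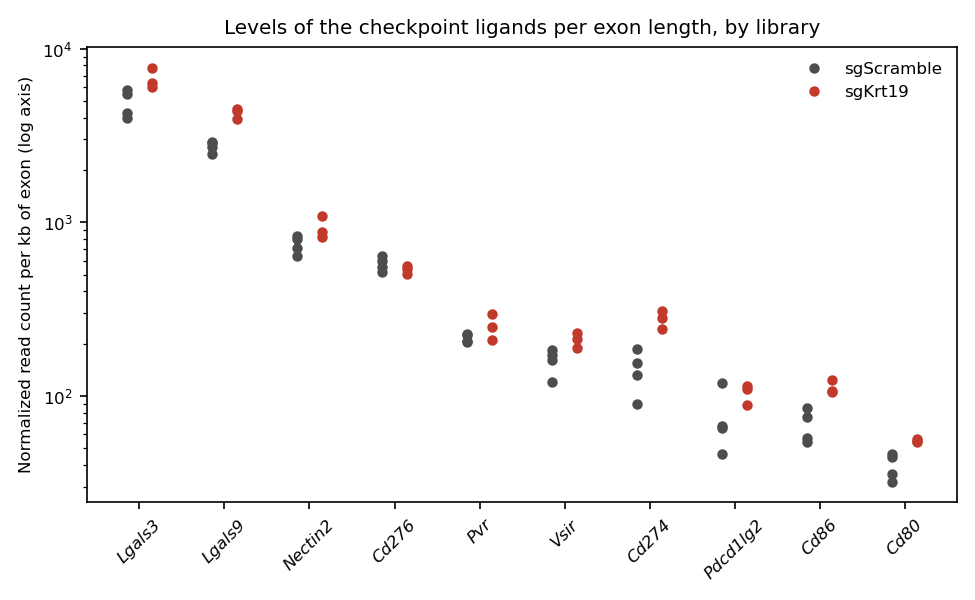
Normalized read count per kb of exon (y axis, log scale) of each checkpoint ligand, ordered by the sgScramble mean, with 1 point per library. *Lgals3* and *Lgals9* lay above the other 8 ligands in all 7 libraries, and *Cd274* moved from 141 to 277 on average.

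The list of receptors and partners of these ligands held 12 genes, of which 9 were called higher and 0 lower, with a median log2 fold change of 1.28. Their summed level was 2099 to 2148 in the sgScramble libraries and 3225 to 4454 in the sgKrt19 libraries. *Pdcd1*, which encodes PD-1, was 106, 92.9, 38.4 and 57.5 in the sgScramble libraries and 601, 495 and 212 in the sgKrt19 libraries, a rise of 2.53 on the log2 scale (SE 0.410, adjusted p = 0.00148, limma) and the largest of the list. The CD80 and CD86 receptors *Cd28* and *Ctla4* rose by 1.70 (adjusted p = 0.00276, limma) and 1.69 (adjusted p = 0.00497, limma). *Ctla4* was low, 23.7 to 39.5 in sgScramble and 62.0 to 171 in sgKrt19, and a second entry of that symbol had similar values (log2 fold change 1.59), so that reads may be shared between them and its level is uncertain. For all 3 of these receptors the groups did not overlap, and sgKrt19 library 8 was the lowest of its group.

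*Havcr2*, which encodes the galectin-9 receptor TIM-3, was 133, 119.6, 97.7 and 138 in the sgScramble libraries and 242, 258 and 228 in the sgKrt19 libraries, which was 0.995 higher on the log2 scale (SE 0.171, adjusted p = 0.00199, limma). *Lag3*, the receptor of galectin-3 among other ligands, rose from 181 ± 39.5 to 622 ± 114 (log2 fold change 1.78, adjusted p = 0.000191, limma). For both receptors every sgKrt19 library was above every sgScramble library. Among genes for receptors of PVR, Nectin-2 or both, *Cd96* rose by 2.05 (adjusted p = 0.000524, limma), *Cd226* by 1.41 (adjusted p = 0.00436, limma) and *Pvrig* by 1.08 (adjusted p = 0.0372, limma). *Pvrig* was near the floor, at 8.64 ± 3.58 and 18.5 ± 0.451, and kept its call in 5 of the 14 alternatives that tested it against no change. *Tigit*, which encodes an inhibitory receptor of both ligands, was 124.5, 169, 136 and 148 in sgScramble and 176, 217 and 128 in sgKrt19. Its groups overlapped and its log2 fold change of 0.24 was not called (adjusted p = 0.388, limma). *Selplg*, a partner of VISTA, rose by 1.14 (adjusted p = 0.00074, limma), whereas the VISTA partner *Igsf11* and the PD-L2 partner *Rgmb*, with −0.18 and 0.06, were not called.

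Of 14 genes of the interferon gamma signal and of PD-L1 regulation, 6 were called higher and 1 lower, with a median log2 fold change of 0.19. *Ifng* itself was 40.9, 24.7, 22.8 and 29.7 in the sgScramble libraries and 187, 147 and 199.5 in the sgKrt19 libraries, which was 2.57 higher on the log2 scale (SE 0.248, adjusted p = 9.67e-05, limma). *Irf1* was 4762, 5220, 3260 and 4498 in sgScramble and 7429, 8097 and 9261 in sgKrt19 (log2 fold change 0.91, adjusted p = 0.00236, limma). Both were without overlap, and each was lowest in sgScramble library 3, the library in which *Cd274* was also lowest. The highest sgScramble library was 1 for *Ifng*, 2 for *Irf1* and 4 for *Cd274*, and the lowest sgKrt19 library was 6 for *Ifng* and 5 for *Irf1* and *Cd274*. *Nfkb1*, a subunit of NF-kappa B, was the member of this list called lower (log2 fold change −0.53, adjusted p = 0.0145, limma), a call that was lost without sgKrt19 library 5 (log2 fold change −0.40).

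Other ligands of inhibitory or costimulatory receptors, a list of 18 genes of which 16 were tested, held 6 called higher and 1 called lower, with a median log2 fold change of 0.37. *Ceacam1*, an adhesion molecule and TIM-3 partner, had the largest rise, with 607, 367, 682 and 355 in the sgScramble libraries and 1750, 2733 and 2519 in the sgKrt19 libraries (log2 fold change 2.25, SE 0.251, adjusted p = 0.000208, limma). Every sgKrt19 library was far above every sgScramble library. *Nectin3*, which encodes an adhesion molecule that binds PVR and Nectin-2, fell from 807 ± 52.5 to 485 ± 44.2 (log2 fold change −0.73, adjusted p = 0.0014, limma).

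**Figure D4:**
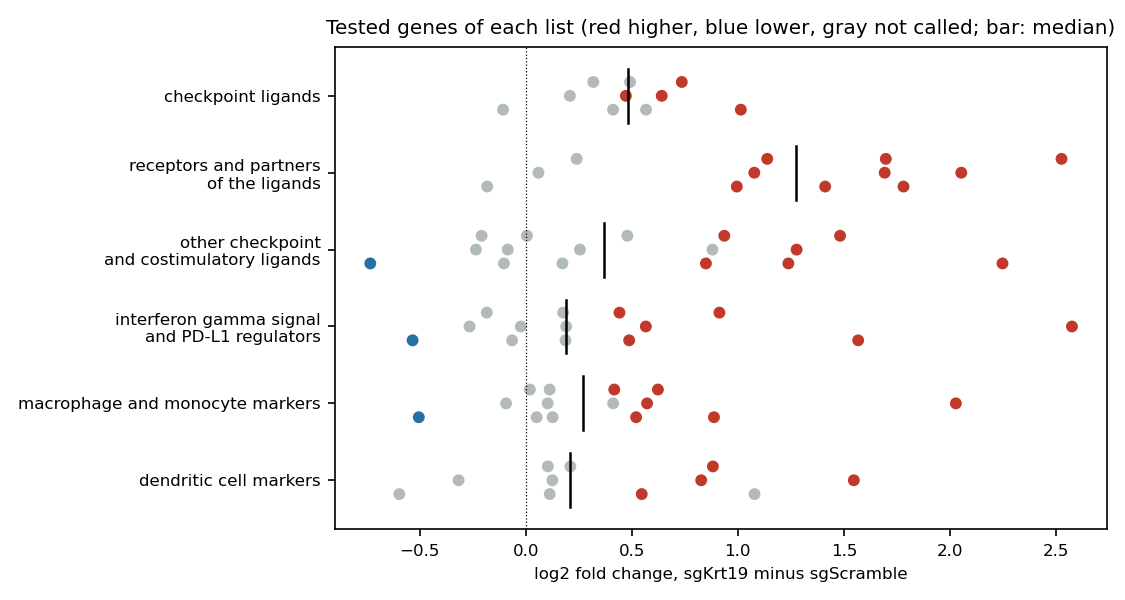
Log2 fold change, sgKrt19 minus sgScramble (x axis), of the tested genes of 6 lists, with red for called higher, blue for called lower, gray for not called and a bar at the list median. The checkpoint ligands had a median of 0.48, their receptors and partners one of 1.28, and the macrophage and dendritic lists medians of 0.27 and 0.21.

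Markers of the cells that could carry the ligands or their receptors moved unequally, and their part in the ligand values was not tested. Of 6 T cell markers 5 were called higher, with the largest change in *Cd8b1* (log2 fold change 3.29). The exception was *Cd4* (log2 fold change 0.56, adjusted p = 0.116, limma), whose groups overlapped. The sum of the 6 was 339.8 to 753 in sgScramble and 2378 to 4531 in sgKrt19. All 5 leukocyte markers were called higher, led by *Cd52* (log2 fold change 1.42), with sums of 7500 to 10236 and 13736 to 18404. Of 14 macrophage and monocyte markers, 6 were called higher, led by *Ly6c2* (log2 fold change 2.03), and 1 lower, the mannose receptor gene *Mrc1* (log2 fold change −0.50, adjusted p = 0.0378, limma). The 7 not called were *Adgre1* (0.02), *Csf1r* (0.05), *Cd68* (0.10), *Mertk* (0.11), *Itgam* (0.13), *Lyz2* (0.41) and *Ccr2* (−0.09). The *Mrc1* call was lost without sgScramble library 2 or 4 and without sgKrt19 library 5 or 8, at −0.37 to −0.59 over the libraries left out. Of the 6 higher calls, those of *Cd14*, whose groups overlapped, and *C1qc* were each lost in 6 of the 15 alternatives against no change. *C1qa* lost its call in 2, *C1qb* in 1, and *Ly6c2* and *Fcgr1* in 0. With library size scaling, 2 of the 14 were called higher and 1 lower. The summed macrophage level was 37843 to 52131 in sgScramble and 49980 to 71296 in sgKrt19, so the groups overlapped. Of 12 dendritic cell markers, 11 were tested and 4 called higher, led by *Xcr1* of the cross-presenting type (log2 fold change 1.55). The 7 not called were *Batf3* (0.13), *Flt3* (0.10), *Zbtb46* (0.11), *Ccr7* (0.21), *Cd209a* (1.08), *Fscn1* (−0.32) and *Ccl22* (−0.60). Over the 15 alternatives against no change, the calls of *Clec9a* and *Itgax* were lost in 4 and 6. The dendritic sum overlapped too, at 3183 to 4019 and 3876 to 4428. Only 2 of 5 B cell markers passed the filter and 0 were called by limma, also 0 at an unadjusted p under 0.05, by edgeR and by DESeq2, with sums of 58.4 to 113 and 60.9 to 87.9.

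Outside the leukocytes, 3 of 8 epithelial markers were called higher, *Krt18* (log2 fold change 0.97) and *Krt8* (0.91), both keratin genes, and the cadherin gene *Cdh1* (0.55). The other 5 were not called and overlapped between the groups, with *Krt7* at −1.03, *Cldn4* at −1.23, *Esrp1* at −1.22, *Epcam* at 0.064 and *Cldn7* at 0.47, and the list median was 0.27. The epithelial sum, 117398 to 158929 in sgScramble and 238064 to 247459 in sgKrt19, was mostly *Krt8*, *Krt18* and *Cdh1*. Of 5 endothelial markers 3 were called higher, led by *Emcn* (log2 fold change 0.82), with sums of 2592 to 3704 and 4269 to 4779. Of 8 fibroblast markers 0 were called by limma, also 0 at an unadjusted p under 0.05 and by edgeR and 1, lower, by DESeq2, with sums of 98371 to 231975 and 113767 to 128011, and all 7 muscle markers were called higher, led by the myosin gene *Myh1* (log2 fold change 8.96). No marker list had a gene at or under the floor of 3 reads in every library. Without sgScramble library 3, the highest of its group in muscle markers, 4 of the 10 checkpoint ligands were still called higher and 0 lower. The muscle list median was then 8.64 instead of 7.32. The groups thus still differed in muscle, and its part in the ligand values was not tested.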

How the data were processed

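RNA from 7 subcutaneous mouse PDA tumors (4 sgScramble, 3 sgKrt19) was sequenced by the study as single reads. The methods name a stranded total RNA kit and the labels polyA RNA. The authors deposited 1 table with a signal per gene and library, which is a normalized read count: reads per gene divided by a size factor. Whole reads were recovered from the steps of these values (tolerance 0.1) for 100% of values in each library, giving 40781199 to 44972100 reads. The genome build in the submitters' processing notes is mm10, and the aligner and counting program are not given in the sources used here. Reads carry no molecular identifiers, so depth covers counting error only. Of the gene identifiers, 37167 (97.74%) were in GENCODE M21 (GRCm38), which gave positions and exon lengths. Promoter windows are from RefSeq (GRCm38.p6).

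The 21322 genes that reached a value of 10 in 3 or more libraries were fitted as log2(value + 1) on the group with limma 3.58.1 (lmFit, eBayes with trend, R 4.3.3), with Benjamini-Hochberg adjustment over all genes and a two-sided threshold of 0.05. Changes of low genes are understated by the pseudocount of 1. Pairs of ligands were compared by exact permutation of the group labels (35 arrangements) (scipy 1.17.1, Python 3.11.15). The 16 alternatives were other pseudocounts (0.5 and 5), other filters (none, and 50), library size scaling, limma without a trend or against a 1.5-fold change, each library left out, edgeR 4.0.16 and DESeq2 1.42.0 on the recovered reads. The fit was tested on simulated data. The groups share no replicate number and the labels give no batch.

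The ligands and the gene lists were chosen with earlier results of these data known. Genes named are every ligand, the receptors that bind one, the called gene with the largest change each way in every other list, *Ifng*, *Irf1*, *Jak2* and *Krt19*. The neighbors of the PD-1 ligand pair, the other epithelial markers, *Cd4*, and the further macrophage and dendritic cell markers were named in addition after their values were seen. *Ctla4* and *Cd28* have 2 entries each in the table, and the identifier found in GENCODE was used. A gene of the interferon list and of the naming rule is not reported here and was left out of the counts of that list.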

Additional observations from a re-analysis of the deposited data

Results flagged for a closer look

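Within the 4 sgScramble libraries, 2 of 29 values screened (the 10 ligands, their 12 receptors and partners, *Ifng*, *Irf1*, *Jak2* and the 4 differences of ligand pairs) had 1 library far from the others, measured as the gap to the nearest library over the range of the group and set against Dixon's 95% critical value for 4 samples. Chance alone marks about 1 in 20 groups, and 0 of the 10 checkpoint ligands were among the 2. *Ctla4* was lowest in sgScramble library 3 with a gap of 0.846, at 23.7 against 37.1 to 39.5. *Cd226* was highest in sgScramble library 1 with a gap of 0.835, at 54.8 against 34.7 to 38.0. Both genes stayed called higher in sgKrt19 when any single library was left out.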

How the results depend on the processing

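Over the 16 alternatives, *Cd274*, *Cd86* and *Lgals9* were each called higher in 15, the exception being the test against a 1.5-fold change, under which 0 of the ligands were called higher and 1336 instead of 7240 genes in all. *Lgals3* was called in 6 of 16, *Cd80* in 4, *Pdcd1lg2* in 1, and the other 4 ligands in 0. With each library left out, 3 to 5 ligands were called higher, and 0 were called lower in any of the 16 alternatives. Scaling by library size alone gave 2187 genes higher and 5705 lower instead of 3820 and 3420, and turned *Pvr* to −0.0080. It left 3 instead of 6 ligands whose groups did not overlap, and the share of all genes was not computed for that scaling. The cause of these shifts was not tested. Without sgScramble library 2, 2257 genes instead of 3420 were called lower, from 3 libraries instead of 4. The ligand pairs were recomputed with the 2 other pseudocounts and with each library left out, and none of these 9 turned their direction. No paired analysis was possible because the groups share no replicate number. Depth limits *Pdcd1lg2* and *Cd80*, with as few as 99 and 120 reads in a library. The spread between tumors and the small groups limit the results, and an effect of the line or clone that formed the tumors cannot be told apart from that of editing *Krt19*.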
